A study of Homo sapiens with 4 samples.

Results

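The SLAM family receptors (signaling lymphocytic activation molecules) are immunoglobulin-like proteins of the lymphocyte surface, and 6 of their genes, SLAMF1, SLAMF6, SLAMF7, CD48, CD84 and LY9, were examined here. They were chosen by name, as the genes whose symbol in the deposited log2 values equals a family member, and the rule itself uses no measured value. All 6 were found among 25066 genes, and all 6 passed the filter on low values, which kept 16945 genes.

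RNA sequencing was performed on NUDUL1, a human line of diffuse large B cell lymphoma (DLBCL) of the germinal center type, with 2 libraries labeled control and 2 labeled GNA13-deficient. Cells of both genotypes came from a Cas9 line grown from a single cell, in which Cas9 is induced by doxycycline, and carried the transduced thromboxane receptor Tbxa2r. One group expressed a control sgRNA and the other an sgRNA to GNA13, which encodes the G protein alpha subunit Gα13, with a single sgRNA per genotype. The cells behind all 4 libraries received U46619, a stable mimetic of thromboxane A2, at 10 nM for 24 h, so the comparison was between genotypes under the agonist and included no untreated cells. The total of mapped reads was 29209544 and 31537955 in the control libraries and 30141459 and 29685942 in the libraries labeled GNA13-deficient. In bulk RNA, fewer cells with a transcript and less transcript per cell cannot be told apart.

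SLAM receptors sit side by side on the surface of B cells, T cells, NK cells and myeloid cells, and most bind a copy of themselves on the neighboring cell. CD48 is the exception among these 6: it has no cytoplasmic tail, is held in the membrane by a glycosylphosphatidylinositol anchor, and binds CD244 and, more weakly, CD2. The other members carry immunoreceptor tyrosine-based switch motifs in the tail, where a phosphorylated tyrosine recruits the small adaptor SAP (gene SH2D1A) or EAT-2 (gene SH2D1B), and SAP in turn brings the kinase FYN. Without SAP the same tyrosines can recruit SH2-domain phosphatases. In germinal centers the family is known for regulating how long B cells and follicular helper T cells adhere to each other.

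The switch motifs of the 3 members on which the results turn, CD84 and LY9, which rose, and SLAMF6, the most abundant member with a signaling tail, are given as 30 coding bases each in GRCh37, the same build as hg19. The capitals mark the tyrosine codon, and codons are counted from the start codon of the canonical transcript in GENCODE.
CD84 codon 262: aagaaaaccataTACacatatatcatggct
CD84 codon 299: gtgaacacagttTATtccgaagtgcagttt
LY9 codon 603: gagaacaccatgTATgcacaagtgttcaac
LY9 codon 626: tcagccacaatcTACtgctccatacggaaa
SLAMF6 codon 285: aacaacactgtgTATgcttcagtcactcat
SLAMF6 codon 309: actatcacaattTACtccacaattaatcat

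The CD84 motifs lie at chr1:160520785-160520814 in exon 5 of 7 and chr1:160519716-160519745 in exon 6, both on the minus strand. The LY9 motifs lie on the plus strand at chr1:160793551-160793580 in exon 8 of 10 and chr1:160794004-160794033 in exon 9. Those of SLAMF6 lie at chr1:160458887-160458916 in exon 6 of 8 and chr1:160456903-160456932 in exon 7, on the minus strand. The 6 coding sequences were searched for a threonine codon, any codon, a tyrosine codon, any 2 codons and a codon for valine or isoleucine. In each of SLAMF1, SLAMF6, SLAMF7, CD84 and LY9, 2 motifs lay after the most hydrophobic stretch, taken as the membrane span. CD48, which has 243 codons, had 0, but none of its codons follow that stretch, so this was fixed in advance. None of the 6 coding sequences held the motif elsewhere. The reads were counted per gene, so transcripts with and without these exons were not told apart.

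The targeted gene was measured first. GNA13 had log2 values of 12.46 and 12.45 in the control libraries and 13.10 and 13.11 in the libraries labeled GNA13-deficient, a difference of 0.65 (SE 0.05, adjusted p = 0.00214, limma, n = 2 per genotype). The targeted mRNA was therefore higher and not lower in the libraries of the GNA13 sgRNA, and the directions given for the SLAM family follow the labels as they stand. A processed pseudogene, GNA13P1, could share reads with it.

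Of the 6 SLAM family genes, CD84 and LY9 were higher in the libraries labeled GNA13-deficient, by 1.51-fold and 1.66-fold, and none was called lower. SLAMF6 and CD48, the most abundant members, differed by less than 0.03 on the log2 scale. SLAMF1 and SLAMF7 were measured from a few reads, and their differences did not pass the test. Called here means a limma p under 0.05 after Benjamini-Hochberg adjustment over all 16945 genes tested. By this measure 2 of 6 members were called (33.3%), where 29.7% of all genes tested were called, 13.1% higher and 16.6% lower. The median log2 difference over the 6 members was 0.27, and that over all genes tested was −0.02. The members' median lay between SLAMF6 (0.01) and SLAMF7 (0.52), the latter from at most 12 reads per library. A difference above 0 was found in 4 of 6 members, SLAMF6 and SLAMF7 among them, and in 8143 of 16945 genes tested. The genotypes did not overlap in 3 of 6 members, CD84 and LY9 being higher and SLAMF1 lower, where 65.3% of all genes tested did not overlap, 31.3% higher and 34% lower. With 2 libraries per genotype an exact permutation test of a single gene cannot go below p = 0.333 (two-sided), so the adjusted p values lean on the spread estimated across all genes. The cells were treated in duplicate, so the p values measure the spread between duplicates, which may be technical.

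CD84, a self-binding receptor expressed on germinal center B cells and follicular helper T cells, had log2 values of 9.55 and 9.38 in control and 10.17 and 9.95 in the libraries labeled GNA13-deficient. Both GNA13-deficient values lay above both control values, and the gap between genotypes was larger than that between replicates. These values came from 735 and 679 reads in control and 1124 and 917 in the libraries labeled GNA13-deficient. The difference was 0.59 (SE 0.11, 95% interval 0.32 to 0.87, adjusted p = 0.0166, limma). The call was lost with no filter on low values (adjusted p = 0.124) and with no variance trend (adjusted p = 0.0742), with the difference at 0.59 in both. Leaving out any library left 1 residual degree of freedom and no gene called, with CD84 between 0.48 and 0.71.

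LY9, also known as CD229, is a self-binding receptor with 4 immunoglobulin-like domains and the longest coding sequence of the 6, with 655 codons. Its log2 values were 6.49 and 6.62 in control and 7.28 and 7.30 in the libraries labeled GNA13-deficient, and the genotypes did not overlap. It was measured from 88 and 100 reads in control and from 151 and 146 in the other genotype, far fewer than CD84. The difference was 0.73 (SE 0.16, 95% interval 0.33 to 1.14, adjusted p = 0.0259, limma), with the adjusted p at 0.0524 when no filter on low values was applied. Among 1834 genes with a mean log2 value within 1 of that of LY9, the 3 whose values in the 4 libraries, relative to the control mean, lay nearest to its own were C14orf83, GNA11 and C20orf132, at Euclidean distances of 0.06, 0.07 and 0.12. GNA11 encodes the G protein alpha subunit Gα11, and its log2 values were 7.32, 7.39, 8.07 and 8.15. No member fell by the test, so no such genes were sought for a fall.

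**Figure D1:**
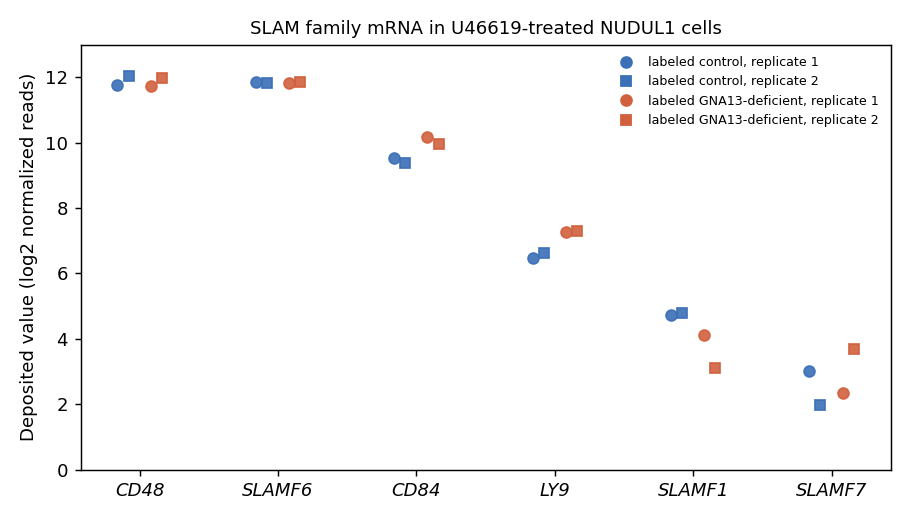
Deposited log2 normalized reads of the 6 SLAM family genes, with 1 point per library, blue for the libraries labeled control, orange for those labeled GNA13-deficient, circles for replicate 1 and squares for replicate 2. The points of CD84 and LY9 separate by genotype with orange above blue, those of SLAMF6 and CD48 overlap, and those of SLAMF1 and SLAMF7 spread widely at low values.

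SLAMF6, a self-binding receptor also called NTB-A or Ly108, had log2 values of 11.86 and 11.83 in control and 11.84 and 11.87 in the libraries labeled GNA13-deficient. Its 4 values stood within the same narrow band and the genotypes overlapped. The difference was 0.01 (SE 0.05, 95% interval −0.12 to 0.14, adjusted p = 0.906, limma), measured from at least 3480 reads per library. Centring each library on its median raised the difference to 0.22 and past the threshold, and that scaling moved the median of all genes from −0.02 to 0.18.

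CD48, the anchored ligand of CD244, had log2 values of 11.75 and 12.03 in control and 11.74 and 11.99 in the libraries labeled GNA13-deficient. In each genotype the second library was the higher one, by 0.28 in control and 0.25 in the other genotype, and these gaps between replicates exceeded the gap between genotypes. The difference was −0.03 (SE 0.13, 95% interval −0.36 to 0.31, adjusted p = 0.906, limma). CD48 was measured from at least 3329 reads per library.

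SLAMF1, or CD150, a self-binding receptor that gives the family its name, had 26 and 28 reads in control and 17 and 8 in the libraries labeled GNA13-deficient. The log2 values were 4.73 and 4.78 in control and 4.13 and 3.11 in the other genotype, which did not overlap but lay 1.02 apart between the GNA13-deficient replicates. The difference of −1.14 (SE 0.45, 95% interval −2.31 to 0.03) had an adjusted p = 0.126 (limma) and was not called. It was the only member with both GNA13-deficient values below both control values. Leaving out 1 library gave −1.65 without the first GNA13-deficient library and −0.63 without the second, and quantile normalization gave −0.67.

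SLAMF7, or CS1, a self-binding receptor of plasma cells and NK cells, had 8 and 4 reads in control and 5 and 12 in the libraries labeled GNA13-deficient. Its log2 values were 3.03, 1.98, 2.36 and 3.69, the genotypes overlapped, and the difference was not called (0.52, SE 0.65, 95% interval −1.15 to 2.20, adjusted p = 0.588, limma). The difference was 1.19 without the first GNA13-deficient library and −0.14 without the second.

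Ratios between members within a library are not moved by scaling all values of that library by 1 factor, though quantile normalization can move them. The log2 ratio of CD84 to SLAMF6 was −2.31 and −2.45 in control and −1.67 and −1.92 in the libraries labeled GNA13-deficient, 0.58 higher in the latter. For LY9 to SLAMF6 it was −5.37 and −5.21 in control and −4.56 and −4.58 in the other genotype, 0.72 higher. Neither ratio overlapped between genotypes, and the exact two-sided permutation p of each was 0.333, the smallest that 2 against 2 allows. Any 2 against 2 without overlap gives this p, and 65.3% of all genes tested did not overlap in their own values. SLAMF6 itself differed by 0.01, so these ratios largely restate the differences of CD84 and LY9. For SLAMF1 to SLAMF6 the ratio went the other way, from −7.13 and −7.05 in control to −7.71 and −8.77 in the libraries labeled GNA13-deficient, without overlap and with the same p of 0.333 in the exact permutation test. Against CD48 in place of SLAMF6 the ratios rose by 0.62 for CD84 and 0.76 for LY9, and fell by 1.11 for SLAMF1.

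Levels of different genes were compared as RPKM, the reads per kilobase of the longest annotated transcript scaled to the library's total. CD48 stood highest, at 70.0 ± 7.42 in control and 66.3 ± 6.65 in the libraries labeled GNA13-deficient (SD, n = 2 each), followed by SLAMF6 at 44.1 ± 1.95 and 42.9 ± 0.296. CD84 stood well below, at 2.85 ± 0.313 and 4.16 ± 0.552, with a longest transcript of 8204 bases against 2743 for SLAMF6. LY9 followed at 0.608 ± 0.0220 in control and 0.977 ± 0.0127 in the other genotype. SLAMF1, at 0.237 ± 0.000434 and 0.111 ± 0.0556, and SLAMF7, at 0.0566 ± 0.0294 and 0.0805 ± 0.0476, came last. The order from CD48 to LY9 was the same in all 4 libraries, and SLAMF1 and SLAMF7, the only neighbors in that order whose values overlapped, changed places in the second GNA13-deficient library. With the shortest coding transcript as the length, SLAMF6 stood above CD48.

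By these levels over the longest transcript the pool of SLAM family transcripts was nearly all CD48 and SLAMF6. CD48 made up 59.3% of the summed level of the 6 members in control and 57.8% in the libraries labeled GNA13-deficient, and SLAMF6 37.5% in both. The share of CD84 was 2.42% in control and 3.64% in the other genotype, and that of LY9 was 0.516% and 0.854%. These shares depend on the transcript length used. With the shortest coding transcript SLAMF6 held 53.9% in control and 52.2% in the libraries labeled GNA13-deficient, CD48 37.2% and 35.0%, CD84 7.86% and 11.4%, and LY9 0.736% and 1.18%.

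**Figure D2:**
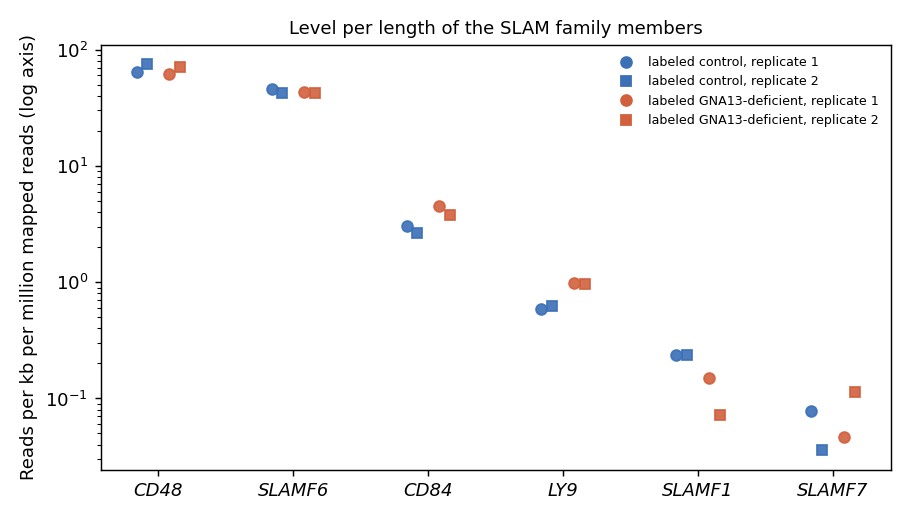
Level of each SLAM family gene in RPKM over the longest transcript, on a log axis, with 1 point per library, blue for the libraries labeled control, orange for those labeled GNA13-deficient, circles for replicate 1 and squares for replicate 2. CD48 and SLAMF6 lie far above the other members, CD84 and LY9 follow, and the points of SLAMF1 and SLAMF7 overlap.

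Among the nearest relatives of the family, 0 of 3 tested were called at an adjusted p under 0.05 (limma), beside 29.7% of all genes tested. CD58, a widely expressed ligand of CD2, had log2 values of 7.98 and 7.92 in control and 8.04 and 8.07 in the libraries labeled GNA13-deficient (difference 0.11, 95% interval −0.16 to 0.37, adjusted p = 0.497, limma). CD244, the receptor for CD48, had 1, 0, 2 and 1 reads, and SLAMF9, which passed the filter only through the control libraries, had 1, 2, 0 and 0 reads. CD2 and SLAMF8 were listed at 0 in all 4 libraries. The adaptors were as scarce: SH2D1A had 2 reads in the second control library and 0 in the others, and SH2D1B was listed at 0 in all 4. A count of 0 does not exclude a low level. Neither adaptor was above a floor of 3 reads in any library, and neither was tested.

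FYN, the Src family kinase that SAP recruits, had log2 values of 9.55 and 9.61 in control and 8.81 and 8.73 in the libraries labeled GNA13-deficient. It fell by 0.81 on the log2 scale (SE 0.08, adjusted p = 0.00310, limma), and the genotypes did not overlap. Of 9 genes for Src family kinases and CSK, the kinase that restrains them, 8 were tested, 5 were lower and 0 were higher, with a median difference of −0.49 against −0.02 for all genes. The called share was 62.5%, where 29.7% of all genes tested were called and 16.6% were lower. With only genes at or above the median level tested, 4083 of 8473 were called, so the share for comparison depends on level. Like all lists here, this list was chosen with earlier results of these data known, so its share is a description. Besides FYN these included LCK (difference −1.53, from 85, 103, 29 and 33 reads), CSK (−0.48) and BLK (−0.43), a kinase of B cells. LYN, the most abundant Src family kinase of B cells in these libraries, differed by 0.02 (95% interval −0.13 to 0.16), and SRC was higher by 1.16 without passing the test (adjusted p = 0.0897, limma). Under median centring 2 of the 8 were called lower, and under quantile normalization 1 was called higher.

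Of the SH2-domain phosphatases that can bind the switch motifs, INPP5D, which encodes SHIP-1, was lower by the test, 1 of 3 genes (33.3%, beside 29.7% of all genes tested). Its log2 values were 13.45 and 13.48 in control and 13.13 and 13.06 in the libraries labeled GNA13-deficient (difference −0.37, SE 0.06, adjusted p = 0.0112, limma). PTPN6, which encodes SHP-1, differed by −0.05 (95% interval −0.20 to 0.10), and PTPN11, which encodes SHP-2, by 0.08 (95% interval −0.12 to 0.28), with overlapping genotypes in both. The call of INPP5D was lost under median centring, where 0 of these 3 genes were lower and 1 was higher, and where 69.1% of all calls were higher.

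Of 18 genes for proteins that act downstream of SLAM receptors, 17 were tested, 6 were lower, 1 was higher and 10 were not called, with a median difference of −0.11. The called share was 41.2%, beside 29.7% of all genes tested (16.6% lower and 13.1% higher). The largest fall was that of SH3BP2, an adaptor that links Src and Syk kinases to phospholipase C and VAV proteins, from 249 and 221 reads in control to 18 and 30 in the libraries labeled GNA13-deficient (difference −3.27, SE 0.33, adjusted p = 0.00357, limma). PRKCQ, or protein kinase C theta, had 59 and 71 reads in control and 12 and 9 in the other genotype (difference −2.57). PLCG1, a phospholipase C, fell by 1.31 on the log2 scale, from 11.20 and 11.18 to 10.02 and 9.74. ARHGEF7, an exchange factor known as beta-PIX, and NCK1, an SH2 and SH3 adaptor, had smaller differences of −0.58 and −0.35. PLCG2, the main phospholipase C gamma of B cells, differed by −0.30 (adjusted p = 0.0149, limma). Under median centring PLCG2 (−0.09, adjusted p = 0.306, limma) and NCK1 (−0.14, adjusted p = 0.216, limma) lost their calls, which left 4 genes lower and 4 higher. VAV1, a guanine nucleotide exchange factor, was the gene that rose, from log2 values of 10.48 and 10.40 to 10.86 and 10.88 (difference 0.43, adjusted p = 0.00724, limma). Beclin-1 (BECN1) and PIK3C3, a pair that SLAMF1 is known to engage at phagosomes, had differences of −0.16 and 0.19 and were not called.

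**Figure D3:**
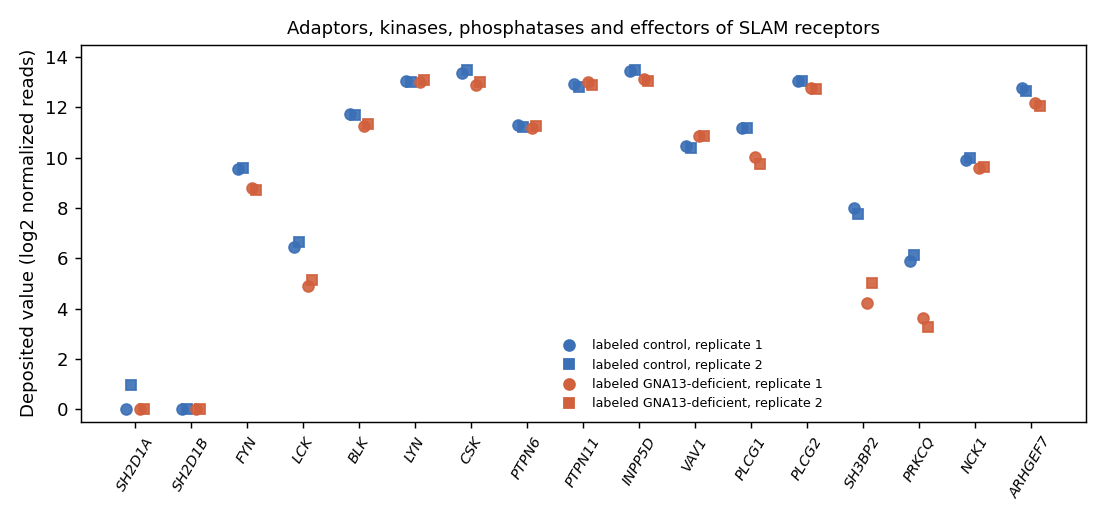
Deposited log2 normalized reads of 17 adaptor, kinase, phosphatase and downstream genes, with 1 point per library, blue for the libraries labeled control, orange for those labeled GNA13-deficient, circles for replicate 1 and squares for replicate 2. SH2D1A and SH2D1B lie at or near 0, the orange points of FYN, LCK, PLCG1, SH3BP2 and PRKCQ lie below the blue ones, and those of LYN, PTPN6 and PTPN11 overlap them.

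**Figure D4:**
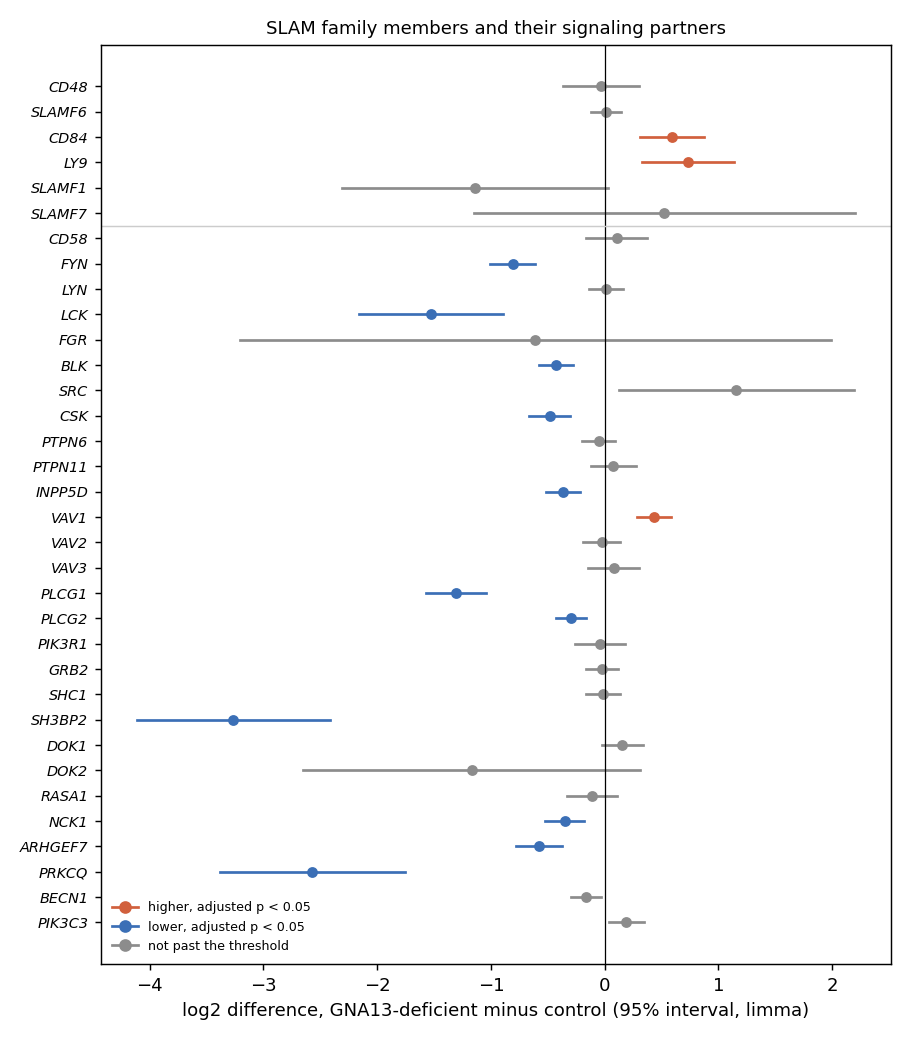
Log2 difference, GNA13-deficient minus control, as a point with the 95% interval from limma as a line, for the 6 SLAM family genes (above the gray line), CD58 and the tested kinase, phosphatase and downstream genes that are reported here, in orange where higher and blue where lower at an adjusted p under 0.05 and in gray otherwise. The intervals of CD84 and LY9 lie above 0, those of SLAMF6 and CD48 span it closely, and those of SLAMF1 and SLAMF7 are wide, while SH3BP2, PRKCQ, LCK and PLCG1 lie farthest below 0 among the called partners.

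Since SLAM receptors are shared by many leukocytes, markers of B cells and of other cell types were measured beside them. All 8 B cell markers were tested, and the most abundant, CD79B, had log2 values of 14.19 and 14.32 in control and 14.11 and 14.33 in the libraries labeled GNA13-deficient. Their summed linear level was 59750 and 63788 in control and 57232 and 61656 in the other genotype. Of the 8, 2 were higher, among them CD40 (0.47), and 2 were lower, MS4A1 (−0.57) and BLNK (−0.26), a called share of 50% beside 29.7% of all genes tested. BLNK lost its call under median centring (−0.05, adjusted p = 0.535, limma). Both BLNK and CD40 lost their calls with no filter and with no variance trend. The part of the B cell markers in the SLAM family differences was not tested.

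Of 8 germinal center B cell markers, 7 were tested and 3 were lower (42.9%, beside 16.6% of all genes tested). BCL6, the germinal center repressor, fell by 2.49 on the log2 scale, LMO2 fell by 3.70, and RGS13 had 12 and 13 reads in control and 3 and 1 in the libraries labeled GNA13-deficient. MME, or CD10, the most abundant of them, differed by −0.02, and SERPINA9 was listed at 0 in all libraries. The summed level was 30335 and 29241 in control and 29596 and 28618 in the other genotype. Of 7 plasma cell markers 3 were lower (42.9%), PRDM1 by −1.85, TNFRSF17 by −0.59 and IRF4 by −0.32, and IGJ was the most abundant. Under median centring TNFRSF17 (−0.39, adjusted p = 0.0705, limma) and IRF4 (−0.115, adjusted p = 0.263, limma) lost their calls. They also lost them with no filter and with no variance trend, while PRDM1 kept its call in these settings. The 7 plasma cell markers together summed to 96797 and 108167 in control and 102543 and 117834 in the other genotype. The part of either marker list in the changes of CD84 and LY9 was not tested.

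Of the 6 T cell markers, CD3D, CD3E and TRAT1 were listed at 0 in all 4 libraries, and CD3G had 1 read in 1 library. CD4, the most abundant of the list, had 115 and 175 reads in control and 12 and 5 in the libraries labeled GNA13-deficient, so that the list summed to 122 and 177 in control and 13.3 and 5.4 in the other genotype. CD4 was lower by the test, and CD8A, with 5, 5, 0 and 0 reads, passed the filter only through the control libraries, so its direction was set by the filter. The NK cell list summed to 11.2 and 6.9 in control and 13.3 and 8.6 in the other genotype, with NKG7 most abundant and 0 of 2 tested genes called. The myeloid list summed to 228 and 242 in control and 27.7 and 26.9 in the other genotype, with ITGAM most abundant, 2 of 4 tested genes lower (50%, beside 16.6% of all genes tested), and S100A8 and S100A9 listed at 0 in all libraries. The part of these marker lists in the changes of CD84 and LY9 was not tested.

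The 6 genes form 1 block of 343.2 kb on chromosome 1 in GRCh37. SLAMF6 (160454820 to 160493052), CD84 (160510885 to 160549306), SLAMF1 (160577896 to 160616834) and CD48 (160648536 to 160681621) lie on the minus strand, and SLAMF7 (160708847 to 160724611) and LY9 (160765864 to 160798051) on the plus strand. The members called higher were thus not next to each other: SLAMF1, CD48 and SLAMF7, none of them called, lie between CD84 and LY9. A long noncoding RNA gene on the opposite strand overlaps CD84 and another overlaps CD48, and the strand setting of the counting is not given in the sources used here, so reads of these overlaps cannot be told apart.

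Outside the block, 41 genes had their start within 500 kb of it, and 32 of them were tested. Of these, 13 were higher (40.6%, against 13.1% of all genes tested) and 0 were lower, with a median difference of 0.26. The genes called higher lay on both sides, 5 of 12 tested below the block, including KCNJ10, and 8 of 20 above it. Among them PIGM, a mannosyltransferase of glycosylphosphatidylinositol anchor synthesis, was higher by 0.82 (adjusted p = 0.00532, limma), PEA15, a death effector domain protein, by 0.73 (adjusted p = 0.00283) and NIT1 by 0.69 (adjusted p = 0.00386). USP21, a deubiquitinase, and DEDD, a death effector domain protein, were higher by 0.48 and 0.45. KCNJ10, a potassium channel counted in the 13, had 1, 0, 3 and 4 reads. It passed the filter only through the libraries labeled GNA13-deficient, so its direction was set by the filter. Its call was lost with no filter, a filter of 2 reads in at least 2 libraries, a pseudocount, voom or a robust variance prior. The genes next to the block on either side, VANGL2 and CD244, were not called. CD244 had 1, 0, 2 and 1 reads, too few to measure a difference. VANGL2 had 97 and 148 reads in control and 142 and 103 in the libraries labeled GNA13-deficient. Its difference was 0.08, with a limma interval from −0.60 to 0.77. Neither gene therefore shows whether the higher values stop at the edges of the block. Over all of chromosome 1, 303 of 1540 genes tested were higher (19.7%) and 182 were lower (11.8%). The part of the chromosomal position in the SLAM family differences was not tested.

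**Figure D5:**
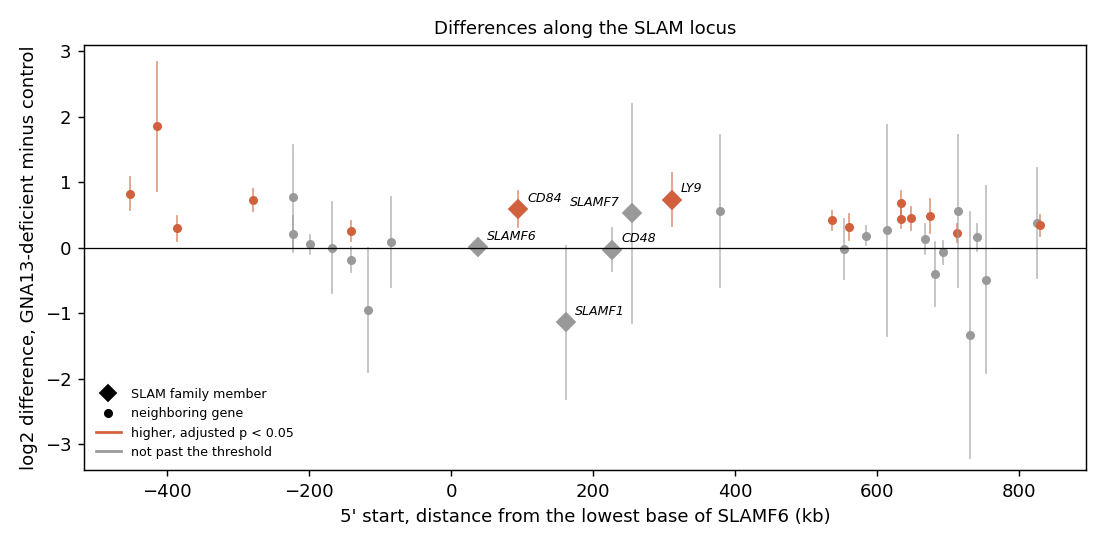
Log2 difference, GNA13-deficient minus control, with the 95% interval from limma as a line, for the SLAM family genes (diamonds) and the tested genes within 500 kb (circles), against the distance in kb of each 5′ start from the lowest base of SLAMF6 on chromosome 1. Genes at an adjusted p under 0.05 are orange and the others gray, and every orange gene, CD84 and LY9 included, lies above 0.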

How the data were processed

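The SLAM family genes were read from deposited log2 values for 4 RNA sequencing libraries of NUDUL1 cells, 2 per genotype. Per the paper's methods, RNA was extracted with the RNeasy kit, libraries were made with a stranded poly(A) kit and reads were aligned to hg19 with STAR; the submitters' processing notes name HTSeq, without a version. The authors deposited normalized reads on the log2 scale, with the total of mapped reads on a linear scale; the normalization method and annotation are not given in the sources used here. Values step in whole reads (100% of values up to 400 reads were whole, within 0.02 reads plus the rounding of the log2 value, 0.159 reads at the limit), so reads were recovered for depth and for levels per kilobase. In control library 2 a gene with 1 read is also listed at 0.

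Differences were fitted with limma 3.58.1 in R 4.3.3 (lmFit, eBayes with a mean-variance trend) on log2 values as deposited, without a pseudocount, for genes above 0 in at least 2 libraries, with Benjamini-Hochberg adjustment over 16945 genes and a threshold of 0.05. The fit was also run on simulated reads, with the same spread setting for every gene and few changed genes. That setting differs from these data, so it does not show how accurate the calls are. Positions, transcript lengths and coding bases came from GRCh37 with GENCODE 44 mapped to that build, read with Python 3.11.15. Members and lists were chosen with earlier results of these data known. Genes named were all members and relatives, at most 6 called genes per list by absolute difference, the most abundant and the absent markers, and the 6 neighbors with the largest differences among those called; LYN, SRC, PTPN6, PTPN11, PLCG2, BECN1, PIK3C3, CD3G, VANGL2 and the chromosome 1 count were chosen after their values were seen. Some genes that the rule includes are left out of the text and figures. Alternatives were other filters, pseudocounts, scalings, variance models, a replicate block and leaving out each library.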

Additional observations from a re-analysis of the deposited data

How the results depend on the processing

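CD84 and LY9 were higher under every alternative run, with CD84 between 0.48 and 0.80 on the log2 scale and LY9, where it was tested, between 0.67 and 1.09. CD84 kept its difference of 0.59 but not its call with no filter (adjusted p = 0.124) or no variance trend (adjusted p = 0.0742), and LY9 kept 0.73 but not its call with no filter (adjusted p = 0.0524). The number of members called higher was accordingly 0 with no filter, 1 with no variance trend and 1 when genes under the median level were filtered out, LY9 among them. Genes called numbered 1999 with no filter and 2718 with no variance trend, against 5037, with 1885 and 2520 shared. Leaving out 1 library left 1 residual degree of freedom, the lone library of a genotype was assumed to vary like the others, and 0 genes, 0 members and 0 genes of any list were called by limma, with 5257 to 5600 genes at an unadjusted p under 0.05. In those fits CD84 ranged from 0.48 to 0.71, LY9 from 0.67 to 0.80 and GNA13 from 0.65 to 0.66, while SLAMF6 ranged from −0.005 to 0.027, CD48 from −0.17 to 0.11, SLAMF1 from −1.65 to −0.63 and SLAMF7 from −0.14 to 1.19. SLAMF6 changed sign under quantile normalization (−0.045) and voom (−0.038) and was called under median centring (0.22), where CD48 changed sign (0.18). Median centring made 69.1% of calls higher, quantile normalization 51.8% and voom 38%, against 44%. Quantile normalization put SLAMF1 at −0.67 and a pseudocount of 10 at −0.71.

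Src family kinases called lower numbered 2 with no filter, median centring or no variance trend, and 1 was called higher under quantile normalization. Phosphatases called lower numbered 0 under median centring, where 1 was higher, and 0 with no variance trend. Downstream genes called higher numbered 4 under median centring and 0 with no variance trend, and those lower 2 with no filter and 3 with no variance trend. Neighbors of the block called higher numbered 5 with no filter and 4 with no variance trend. These list alternatives were chosen after seeing the data. With the shortest coding transcript as the length, the log2 ratio of CD48 to SLAMF6 reversed to −0.55, SLAMF6 to CD84 was 2.46 and CD84 to LY9 was 3.33; the alternative changes the lengths alone. The labels number the replicates alike, but 2 pairs do not establish pairing; deviations of same-numbered libraries correlated at 0.453 over 8473 genes. With the replicate block 6616 genes were called, 5011 of them shared, CD84 (adjusted p = 0.00221) and LY9 (adjusted p = 0.0220) kept their calls, and 1 neighbor of the block was called lower. SLAMF1 and SLAMF7 were measured from at most 28 reads per library.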
